A study of Mus musculus with 8 samples.

Results

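Marker genes of stratified squamous epithelium, 10 in number, were followed in mouse liver RNA: Krt4, Krt13, Krt5, Krt14, Krt1, Krt10, Krt6a, Lgals7, Ly6d and Perp. They were picked by name out of the 56884 genes of the count tables, and each name matched 1 row. The choice was made with the DIO against DIO + DHA values of these genes known, so that contrast is described for them without a test. The libraries came from C57BL/6J female mice of 18 months, with 1 library per mouse. All mice had eaten, from 2 months of age and for 4 months, a high-fat diet in which lipids gave 45% of the energy. The 3 DIO mice (replicates 1, 4 and 5) stayed on that diet, to which mixed tocopherols were then added because the DHA concentrate held them. For the 5 DIO + DHA mice (replicates 1, 2, 4, 5 and 6), a fish oil concentrate rich in the n-3 fatty acid docosahexaenoic acid (DHA), with 683.4 mg of DHA per g, took the place of 15% by weight of the lipids. Both groups were fasted overnight before the liver was taken, and the sequenced mice were a subsample of each group.

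Stratified squamous epithelium is the layered lining of skin, mouth, oesophagus and, in the mouse, the forestomach. Its cells build keratin filaments from obligate pairs of a type I and a type II keratin, and the pair depends on the layer: Krt5 with Krt14 in the dividing basal layer, Krt1 with Krt10 above it in skin, and Krt4 with Krt13 above it in oesophagus, forestomach and mouth. Liver holds no such layer in textbook descriptions. Hepatocytes and bile duct cells make the simple keratins Krt8 and Krt18, and bile duct cells add Krt7 and Krt19.

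The libraries held 1723800 to 5690347 counts, and DIO replicate 1 was the shallowest. Mitochondrial genes took 3.20% to 3.63% of the counts in the DIO group and 3.57% to 4.34% in the DIO + DHA group. No library repeated another within sampling noise: the mean chi-square per gene, which is near 1 for sampling noise alone, was 1.93 to 5.20 between libraries of a group and 8.81 to 20.2 between libraries of different groups. Summed CPM of 8 hepatocyte genes (among them Alb, Ttr, Fabp1 and Hp) was 105981 to 112486 in the DIO group and 115189 to 127569 in the DIO + DHA group, and these liver genes were thus present in every library. Levels are given as CPM, counts scaled to one common library size after TMM normalization. Testing was limited to the 12412 genes with at least 5 counts in 50% or more of the libraries of 1 of the groups. In edgeR's quasi-likelihood test, 15.2% of them had an adjusted p under 0.05, made up of 7.89% that were higher in the DIO + DHA group and 7.28% that were lower.

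The 2 suprabasal keratins of oesophagus type, the type II Krt4 (chr15:101826970-101833170, minus strand, GRCm39) and its type I partner Krt13 (chr11:100008153-100012392, minus strand), had the most counts among the keratins that were all but missing in the DIO group. Krt4 had 0, 1 and 0 counts in DIO replicates 1, 4 and 5. In DIO + DHA replicates 1, 2, 4, 5 and 6 it had 134, 62, 63, 119 and 130 counts, which is 26.6, 20.8, 22.5, 27.9 and 28.4 CPM. Krt13 had 0 counts in all 3 DIO libraries and 75, 47, 52, 57 and 75 counts in the 5 DIO + DHA libraries, or 14.9, 15.8, 18.6, 13.3 and 16.4 CPM. Every DIO + DHA library therefore lay far above every DIO library for both genes. The means of the DIO + DHA group were 25.2 ± 3.40 CPM (SD, n = 5) for Krt4 and 15.8 ± 1.92 CPM for Krt13. The single Krt4 count put the DIO level at 0.299% of the DIO + DHA level, with an exact 95% counting interval of 0.00755% to 1.67%. For Krt13, a floor of 3 counts over the DIO group (0.232 CPM) put it at 1.49% at most. The tissue that these counts came from was not tested. Fewer cells of a type and less RNA per cell cannot be told apart in such bulk samples either.

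The starts of both genes are shown because the pair moved together; they were read from GRCm39 at the canonical start of GENCODE mouse release 39, 5′ to 3′ on the gene's strand, from 250 bases before the start to 20 bases from it. Capitals mark the letters ATAA, the core of a TATA box, 40 to 20 bases before the start. They also mark the letters TGANTCA, a pattern wider than the core of an AP-1 site, TGAGTCA or TGACTCA. The Krt4 stretch is chr15:101833151-101833420 and that of Krt13 is chr11:100012373-100012642, both on the minus strand.
Krt4: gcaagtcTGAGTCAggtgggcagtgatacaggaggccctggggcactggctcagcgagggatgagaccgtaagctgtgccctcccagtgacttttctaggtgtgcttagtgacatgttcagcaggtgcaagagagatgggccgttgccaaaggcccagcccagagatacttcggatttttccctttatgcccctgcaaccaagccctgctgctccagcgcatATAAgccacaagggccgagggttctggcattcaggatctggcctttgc
Krt13: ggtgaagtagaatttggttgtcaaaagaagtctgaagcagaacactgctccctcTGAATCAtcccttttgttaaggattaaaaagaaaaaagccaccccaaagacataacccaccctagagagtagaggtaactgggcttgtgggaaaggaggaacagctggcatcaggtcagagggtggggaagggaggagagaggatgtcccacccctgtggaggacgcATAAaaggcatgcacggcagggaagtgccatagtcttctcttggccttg
The ATAA begins 28 bases before the start in Krt4 and 29 bases before it in Krt13. This placement occurred in 5 of the 10 genes (Krt4, Krt13, Krt5, Krt10 and Krt6a) and in 8.5% of 21751 promoters. A TGANTCA, a pattern that is the same on both strands, begins at 243 bases before the start in Krt4 and 196 in Krt13. The Krt4 match, TGAGTCA, is the AP-1 core, and the Krt13 match, TGAATCA, is not. Among the 10 genes it was found within 250 bases before and 50 after the start only in these 2 and in Krt14 (63 bases before), against 7.1% of all promoters. All these positions count from the release 39 start. For Krt5, Krt14, Krt10, Lgals7, Ly6d and Perp that start differs from the 5′ end of the locus given in this report, which is that of the deposited counts. Both motifs were chosen after the sequences had been seen, and a match is a description of the letters, not of a bound site.

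**Figure D1:**
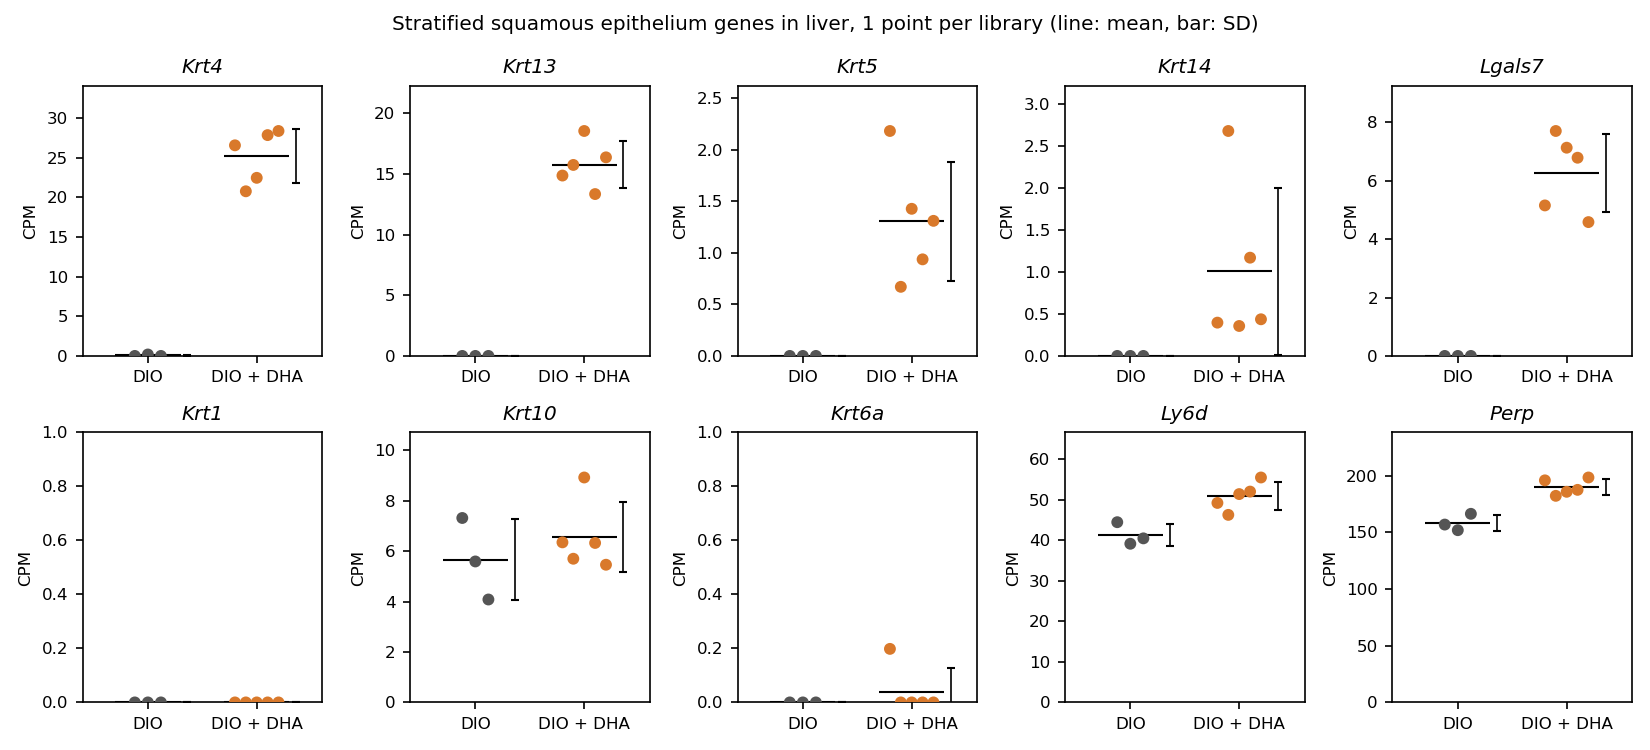
CPM of each of the 10 genes (vertical axis, own scale per gene, from 0) in 3 DIO and 5 DIO + DHA libraries, with 1 point per library, a line at the mean and a bar for the SD. Krt4, Krt13, Krt5, Krt14 and Lgals7 lie at or next to 0 in the DIO group and above 0 in all 5 DIO + DHA libraries, while Krt10, Ly6d and Perp are present in both groups and Krt1 is at 0 throughout.

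The basal pair was counted in the same libraries, with few counts each. Krt5 (chr15:101615505-101621333, minus strand), the type II keratin of basal cells, had 0 counts in the 3 DIO libraries and 11, 2, 4, 4 and 6 counts in DIO + DHA replicates 1, 2, 4, 5 and 6. Krt14 (chr11:100093988-100098374, minus strand), its type I partner, also had 0 counts in the DIO group, and 2, 8, 1, 5 and 2 counts in the DIO + DHA group. Both were thus seen in 5 of 5 DIO + DHA libraries and in none of the DIO libraries, at 1.31 ± 0.575 and 1.01 ± 0.994 CPM. With the floor of 3 counts in place of the 0 DIO counts, Krt5 was at least 5.93-fold and Krt14 at least 3.95-fold higher. The floor allows for counting error in the DIO group and not in the DIO + DHA counts. Neither gene reached 5 counts in enough libraries to be tested. Of the Krt5 exon bases, 5.87% are shared with the gene Gm55161, and reads that overlap 2 genes were not counted.

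The skin pair behaved differently. Krt1 (chr15:101753861-101759229, minus strand), the type II keratin of the upper layers of epidermis, had 0 counts in all 8 libraries. Set against the 508 Krt4 counts of the DIO + DHA group, 0 Krt1 counts allow a share of up to 0.591%. Its type I partner Krt10 (chr11:99276080-99280190, minus strand) was counted in every library of both groups, with 13, 31 and 23 counts in DIO replicates 1, 4 and 5 and 32, 17, 25, 27 and 25 counts in the DIO + DHA libraries. In CPM these were 7.31, 5.59 and 4.08 against 6.35, 5.70, 8.92, 6.32 and 5.46, so the groups overlapped. The ratio of the groups was 1.24, with an interval of 0.914 to 1.69 that covers counting error only. Krt10 was thus counted in all 8 libraries without its usual partner. The share of Krt10 exon bases that overlap the gene Gm11940 is 6.91%.

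For comparison with the oesophagus-type pair, the 80 bases around the starts of the skin-type pair (60 before and 20 from the start) are chr15:101759210-101759289 for Krt1 and chr11:99280176-99280255 for Krt10, on the minus strand of GRCm39.
Krt1: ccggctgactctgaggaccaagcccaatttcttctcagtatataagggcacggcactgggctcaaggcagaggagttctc
Krt10: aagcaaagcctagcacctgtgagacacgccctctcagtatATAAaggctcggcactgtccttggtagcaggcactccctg
Krt10 has ATAA 20 bases before its start, in capitals. The ATAA of Krt1 begins 19 bases before the start and so falls just outside the window that was searched. Neither gene has a TGANTCA within 250 bases before and 50 after the start.

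Krt6a (chr15:101598345-101602742, minus strand), a type II keratin that wounded epidermis and the mouth lining switch on, had 1 count in DIO + DHA replicate 1 and 0 elsewhere, under the floor in both groups. Of its exon bases, 24.8% overlap Gm49428 and Gm55158, the largest such share among the 10 genes. Of the 421 stretches of 80 bases in the last 500 bases of its transcript, 25 also occur in a transcript of Gm49428. In the other 9 members no such stretch occurs in another gene.

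Lgals7 (chr7:28563278-28565709, plus strand) encodes galectin-7, a sugar-binding protein of stratified epithelia. It had 0 counts in the 3 DIO libraries and 26, 23, 20, 29 and 21 counts in DIO + DHA replicates 1, 2, 4, 5 and 6. That is 5.16, 7.71, 7.14, 6.79 and 4.59 CPM, with a mean of 6.28 ± 1.34, and it leaves the DIO level at 3.83% of the DIO + DHA level at most. Lgals7 thus followed the pattern of Krt4 and Krt13 and not that of Krt10.

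Ly6d (chr15:74633905-74635469, minus strand), a membrane-anchored surface protein of keratinocytes and early B cells, was present in both groups. It stood at 44.4, 39.1 and 40.5 CPM in DIO replicates 1, 4 and 5 and at 49.2, 46.2, 51.4, 52.0 and 55.5 CPM in the DIO + DHA libraries. The groups did not overlap, and the ratio was 1.26 (counting interval 1.14 to 1.41). The 6 B cell genes read beside it summed to 3.94 to 7.45 CPM in the DIO group and 6.37 to 13.5 CPM in the DIO + DHA group, and their part in the Ly6d values was not tested. Perp (chr10:18720768-18732821, plus strand), a desmosome protein and target of p53, had the most counts of the 10, at 157, 152 and 166 CPM against 196, 182, 186, 188 and 199 CPM. The groups again did not overlap, with a ratio of 1.20 (1.14 to 1.27). The mean of Perp was 158 ± 7.34 CPM in the DIO group and 190 ± 6.89 CPM in the DIO + DHA group. The 3 members Krt10, Ly6d and Perp were thus counted in every DIO library, Krt10 with few counts. Together they went from 205 ± 7.66 to 247 ± 9.19 CPM, and most of that sum was Perp.

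Of the 10 genes, Krt4, Krt13, Krt5, Krt14, Lgals7, Ly6d and Perp did not overlap between the groups, all being higher in the DIO + DHA group. Among all tested genes, 9.54% were higher without overlap; since the genes were picked on this contrast, nothing is read from the comparison. Of them 6 passed the filter on low counts, Krt10, Ly6d and Perp also through the DIO group, and Krt4, Krt13 and Lgals7 through the DIO + DHA group alone. A separate count covered the 11253 genes with at least 50 counts over the 8 libraries. Of these, 27 genes (0.24%) had at most 1 count in the DIO group and at least 50 in the DIO + DHA group, and Krt4, Krt13 and Lgals7 were 3 of them. No gene showed the reverse pattern at an equal level. Krt4 and Krt13 had the highest DIO + DHA counts of the 27. The others included Crct1 and Asprv1 of the cornified envelope lists below, the skeletal muscle gene Mb and the brown fat gene Ucp1.

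The 5 members with at most 1 count in the DIO group and more than 1 in the DIO + DHA group (Krt4, Krt13, Krt5, Krt14 and Lgals7, a set formed after their counts were seen) were also summed. They had 1 count in the DIO group and 978 in the DIO + DHA group. Their sum was 49.6 ± 1.31 CPM in the DIO + DHA group, within 47.6 to 51.1 CPM. The coefficient of variation between mice was 2.64%, whereas counting error alone would give 7.36%. For the single genes it was 13.5% for Krt4 against 10.3% from counting, 12.2% against 13.0% for Krt13, 21.3% against 20.7% for Lgals7, 44.1% against 45.4% for Krt5 and 98.5% against 51.6% for Krt14. Krt14 had 8 of its 18 counts in replicate 2. Summed over the 9 members other than Perp, the level was 47.1 ± 4.07 CPM in the DIO group and 107 ± 4.95 CPM in the DIO + DHA group.

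**Figure D2:**
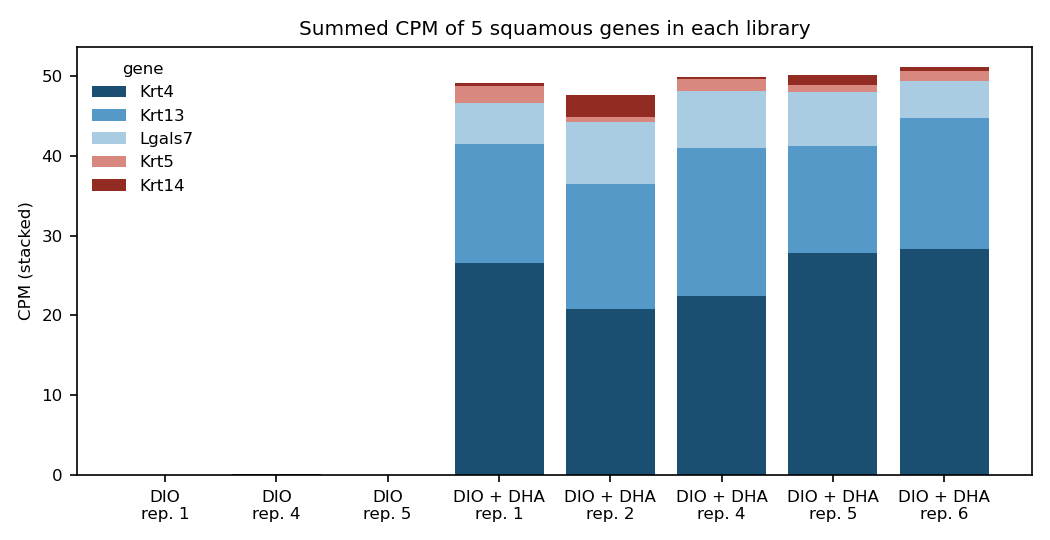
Stacked CPM of Krt4, Krt13, Lgals7, Krt5 and Krt14 in each library (vertical axis from 0; 1 bar per library). The 5 DIO + DHA bars reach 47.6 to 51.1 CPM and the 3 DIO bars are at or next to 0.

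The make-up of these keratin counts was compared between the mice as shares within a library. The counts are mostly from 3′ ends and were not divided by gene length, so a share describes counts and does not compare the number of molecules of 2 genes. Krt4 took 64.1%, 56.9%, 54.8%, 67.6% and 63.4% of the Krt4 + Krt13 counts in DIO + DHA replicates 1, 2, 4, 5 and 6. The exact (Clopper-Pearson) 95% intervals of all 5 libraries included the pooled share of 62.4% (508 of 814 counts, 59.0% to 65.7%). The oesophagus-type pair made up 86.7%, 86.5%, 82.1%, 86.7% and 89.1% of the counts of both suprabasal pairs together, and 86.6% when pooled (814 of 940 counts, 84.2% to 88.7%). All the remaining counts of that total were of Krt10, which stood at a similar level in the DIO group, where the same total held 67 Krt10 counts and 1 Krt4 count. The basal pair made up 5.86%, 8.40%, 4.17%, 4.86% and 3.76% of the counts of the basal and oesophagus-type pairs, and 5.24% when pooled (45 of 859 counts, 3.85% to 6.95%). Within the basal pair Krt5 took 27 of 45 counts, 60% with an interval of 44.3% to 74.3%, and the libraries held only 5 to 13 counts each for this share.

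**Figure D3:**
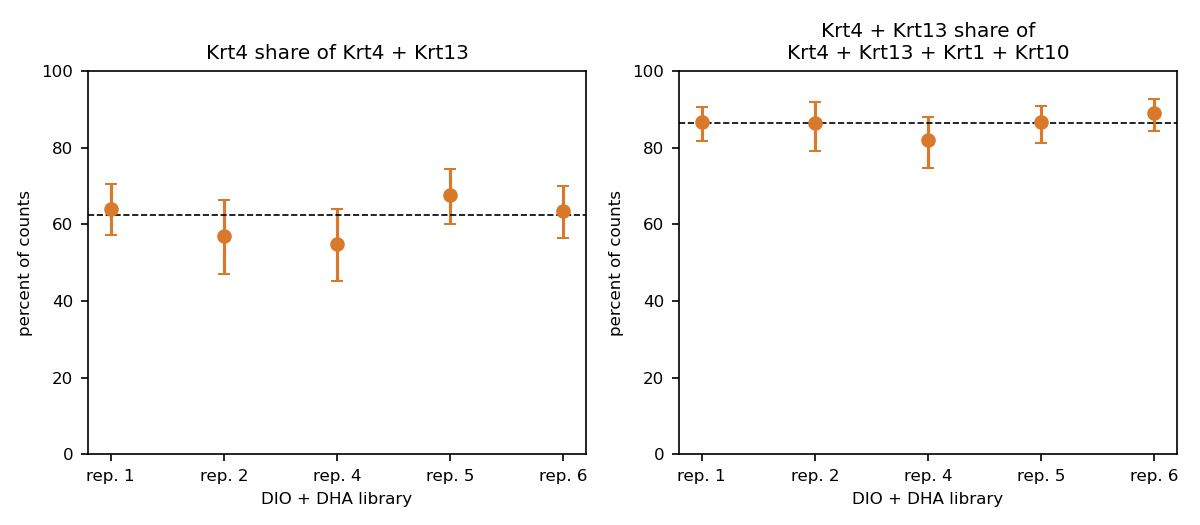
Share of Krt4 in the Krt4 + Krt13 counts (left) and of Krt4 + Krt13 in the counts of Krt4, Krt13, Krt1 and Krt10 (right), in percent, in each DIO + DHA library with exact 95% intervals; the dashed line is the pooled share. The intervals of all 5 libraries include the pooled 62.4% on the left and 86.6% on the right.

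Beyond the members, 67 further genes of stratified epithelium were read in 4 groups: other keratins, the cornified envelope and late differentiation, desmosomes, and the basal layer. Of the 67 genes, 17 had 0 counts in all 8 libraries and another 22 had 0 counts in the DIO group only. The test covered 27 of them, of which 15 were higher, 1 was lower and 11 did not pass. The count and the median depend on how the genes entered the test. Of the 15 that had enough counts in the DIO group too, 3 were higher (Loricrin, Sfn and Lamb3), 1 was lower (Tgm1) and 11 did not pass. Their median log2 fold change was 0.08, against -0.01 over all tested genes that entered in the same way. The other 12 entered through the DIO + DHA group alone, a way that favours genes that are high there, and all 12 were higher. The median over all 27, which these 12 carry, was 2.05, against 0.00 over all tested genes. With 10 counts required in every library of 1 group, 13 were tested and 4 were higher. The Sfn call (adjusted p = 0.0482) held in 2 of 14 alternatives. Over all tested genes, 6.49% of the 11903 that also passed through the DIO group and 40.5% of the 509 that passed through the DIO + DHA group alone were higher.

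The cornified envelope is the crosslinked protein shell of the outermost cells, and 15 of its 30 listed genes were tested: 12 were higher, 1 was lower and 2 did not pass. Of these 12, 10 entered the test through the DIO + DHA group alone, and of the 5 that also passed through the DIO group, 2 were higher, 1 was lower and 2 did not pass. Krtdap, a small secreted protein of differentiating keratinocytes, had 1, 3 and 3 counts in DIO replicates 1, 4 and 5 and 136, 73, 89, 113 and 142 counts in the DIO + DHA libraries. Its CPM went from 0.545 ± 0.0156 to 28.1 ± 3.12, a log2 fold change of 5.62 (SE 0.28, adjusted p = 9.0e-24, edgeR). Krtdap was among the genes that entered the test through the DIO + DHA group alone. Krt4 took 47.9% of the pooled Krt4 + Krtdap counts (44.8% to 50.9%), and the per-library intervals all included this share. Loricrin, the main envelope protein of epidermis, went from 1.51 ± 0.377 to 6.19 ± 0.893 CPM (log2 fold change 2.05, SE 0.33, adjusted p = 2.5e-06). Crct1, Rptn, Calml3 and Sprr3, the last of them a proline-rich envelope precursor of oesophagus and mouth, had 0 counts in the DIO group and 69, 44, 42 and 31 in the DIO + DHA group. With the floor in place of the 0 DIO counts, the increases were at least 15.1-, 9.66-, 9.22- and 6.81-fold, bounds and not estimates. Other envelope genes fell or did not pass. Tgm1, a transglutaminase that crosslinks the envelope, fell from 22.2 ± 2.67 to 8.64 ± 1.38 CPM (log2 fold change -1.40, SE 0.16, adjusted p = 7.7e-10). Ecm1, a secreted matrix protein, was at 173 ± 17.0 and 163 ± 9.26 CPM (adjusted p = 0.496), and the plakin Ppl was at 19.3 ± 4.24 and 16.6 ± 4.59 CPM (adjusted p = 0.636). The envelope precursor Ivl had 1 count and Flg 4 counts, all in the DIO + DHA group. Of the 30 genes, 7 had 0 counts in all 8 libraries: Crnn, Scel, Sprr1b, Sprr2a1, Sprr2a2, Sprr2a3 and Sprr2d. Sprr1a had 2 counts in the DIO group and 4 in the DIO + DHA group.

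Of 14 other keratins, 7 were at 0 in every library: Krt2, Krt16, Krt17, Krt24, Krt76, Krt77 and Krt84. Krt15, a type I keratin of the basal layer, had 0 counts in the DIO libraries and 5, 5, 9, 2 and 8 in the DIO + DHA libraries. That is 6.37-fold the floor of the DIO group. Krt15 was the only one tested (log2 fold change 5.64, adjusted p = 0.00035, edgeR), and it entered through the DIO + DHA group alone. Krt78, a type II keratin of stratified epithelia, had 0 counts in the DIO libraries and 3, 4, 6, 11 and 4 counts in the DIO + DHA libraries, and did not reach the test. Krt79 had 1 and 13 counts and Krt80 5 and 10 counts in the DIO and DIO + DHA groups. The remaining 3 (Krt6b, Krt32 and Krt36) had 1 count each, in the DIO + DHA group. Of this list, Krt15 and Krt78 were thus the only keratins with more than 3 counts in the DIO + DHA group and 0 in the DIO group.

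Desmosomes are the junctions that hold epithelial cells together, and liver has them too. Of 13 desmosome genes, 7 were tested and 1 was higher: Pkp1, the plakophilin of stratified epithelia. It had 0 counts in the DIO group and 29 in the DIO + DHA group (6.37-fold the DIO floor, adjusted p = 0.00021, edgeR). Pkp1 entered the test through the DIO + DHA group alone. Dsg2, Dsp, Jup, Pkp2, Pkp3 and Dsc2 did not pass, among them Dsp at 26.1 ± 2.81 and 27.5 ± 3.41 CPM and Dsg2 at 59.4 ± 6.43 and 59.9 ± 1.95 CPM. The desmosome genes Dsg1a, Dsg1b and Dsc1 had 0 counts in all 8 libraries. Dsg3, Dsc3 and Cdsn had 0 counts in the DIO group and 3, 3 and 5 in the DIO + DHA group, too few for the test. Of 10 basal-layer genes, 4 were tested and Lamb3, a chain of laminin-332 of the basement membrane, was higher. It had 15, 51 and 58 counts in the DIO libraries and 271, 149, 151, 238 and 219 in the DIO + DHA libraries, a log2 fold change of 2.45 (SE 0.14, adjusted p = 8.6e-22). Itga6, Dst and Pax9 did not pass (adjusted p = 0.943, 0.136 and 0.847). Trp63, the transcription factor of basal cells, had 3 counts in the DIO + DHA group and 0 in the DIO group.

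**Figure D4:**
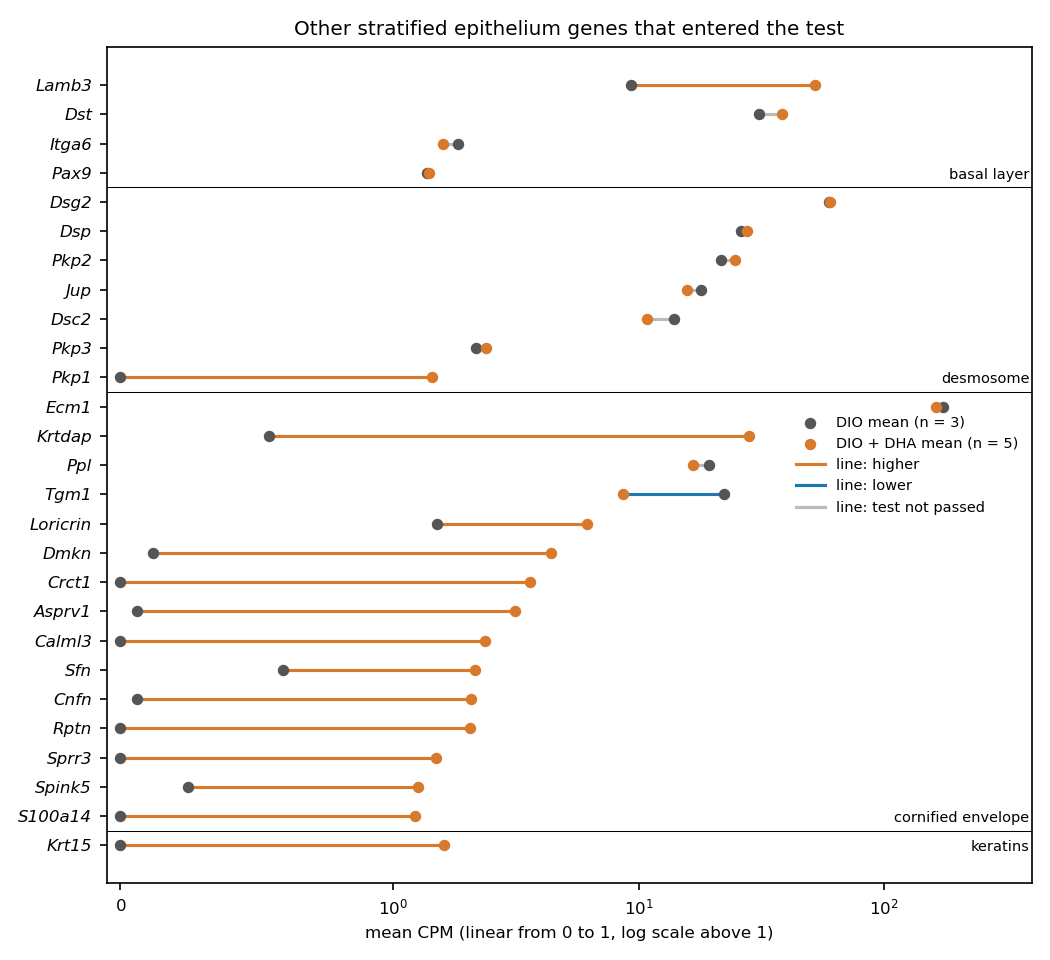
Mean CPM of the 27 further stratified epithelium genes that entered the test, in the DIO group (grey, n = 3) and the DIO + DHA group (orange, n = 5), on an axis that is linear from 0 to 1 and logarithmic above. Orange lines join the 15 genes that were higher, the blue line Tgm1, which was lower, and grey lines the 11 that did not pass, most of which have over 10 CPM in both groups.

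The simple keratins that liver itself makes gave another picture. Krt18, the type I keratin of hepatocytes, stood at 300.3 ± 9.47 CPM in the DIO group and 330 ± 14.9 CPM in the DIO + DHA group (adjusted p = 0.212), and its type II partner Krt8 at 129 ± 13.5 and 108 ± 8.38 CPM (log2 fold change -0.26, SE 0.08, adjusted p = 0.0275). The Krt8 call was lost without DIO replicate 1 or 5, without DIO + DHA replicate 4 or 5, and with DESeq2, with adjusted p up to 0.387. Krt7 and Krt19 of bile duct cells did not pass (adjusted p = 0.154 and 0.536). Krt23, a type I keratin, was higher at 2.11 ± 0.787 and 11.5 ± 1.69 CPM (log2 fold change 2.34, SE 0.27, adjusted p = 3.3e-10). Of the 8 tested genes of simple keratins and bile duct cells together, 2 were higher (Krt23 and Sox9) and 1 was lower (Krt8). Epcam and Spp1 did not pass (adjusted p = 0.193 and 0.843), and Sox9 (log2 fold change 0.97, adjusted p = 0.0344) kept its call in 6 of 14 alternatives. Without DIO replicate 1, without DIO + DHA replicate 4 or with DESeq2, 1 gene of the 2 lists was called.

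Markers of other tissues moved in the same libraries. Of the 32 tested genes on 10 lists of other cell types, 26 were higher at the adjusted threshold in edgeR and 0 were lower, as with DESeq2 (23 and 0) and limma-voom (24 and 0). At an unadjusted p under 0.05, 0 of the 32 were lower in edgeR. Of the 26, 14 entered the test through the DIO + DHA group alone, and of the 18 tested genes that also passed through the DIO group, 12 were higher and 6 did not pass, beside 6.49% higher over all tested genes of that kind. With 10 counts required in every library of 1 group, 17 of 20 were higher. All 15 skeletal muscle genes were higher, 8 of which also passed the filter through the DIO group, and the Tnnc2 call held in 10 of 14 alternatives. Their summed level was 33.5 to 38.3 CPM in the DIO libraries and 1307 to 1424 CPM in the DIO + DHA libraries, with none of the defining genes at 0 in the DIO + DHA group. Of 7 fat genes, all 5 tested were higher (Cfd, Ucp1, Cidea, Adipoq and Retn), from 1.60 to 3.94 CPM summed in the DIO group to 41.3 to 60.7 CPM. All but Cfd entered the test through the DIO + DHA group alone, and the Adipoq call was lost without DIO replicate 4 or 5 or DIO + DHA replicate 6. Of 8 smooth muscle genes, 4 of 6 tested were higher (Des, Acta2, Actg2 and Synpo2) and Myh11 and Tagln did not pass. The list summed to 6.03 to 10.3 CPM in the DIO group and 25.7 to 43.2 CPM in the DIO + DHA group. Des, which is not particular to smooth muscle, held 19 of the 107 DIO counts and 344 of the 679 DIO + DHA counts. Actg2 and Synpo2 entered through the DIO + DHA group alone, and the Actg2 call (adjusted p = 0.0343) held in 5 of 14 alternatives. Of 5 mesothelium genes, Upk3b, which entered through the DIO + DHA group alone, was higher. Of 6 B cell genes, Ebf1 was higher while Cd79b did not pass. The Ebf1 call (adjusted p = 0.0364) held in 5 of 14 alternatives and was lost with DESeq2 and limma-voom. Their part in the keratin values was not tested.

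Tissues that lie next to stratified epithelium or carry glands had few counts or did not pass the test. Of 10 genes of glandular stomach, which borders the forestomach, 7 were at 0 in all libraries, and the list had 9 counts in the DIO group and 12 in the DIO + DHA group. Of 7 airway genes 4 were at 0, with 2 and 3 counts in the groups. The only tested gene of the salivary list (Amy1), of the pancreas list (Cela1) and of the hair and pigment list (Dct) did not pass, with adjusted p of 0.0556, 0.325 and 0.784. On those 3 lists, 7 of 9, 3 of 8 and 5 of 9 genes were at 0 in all libraries.

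**Figure D5:**
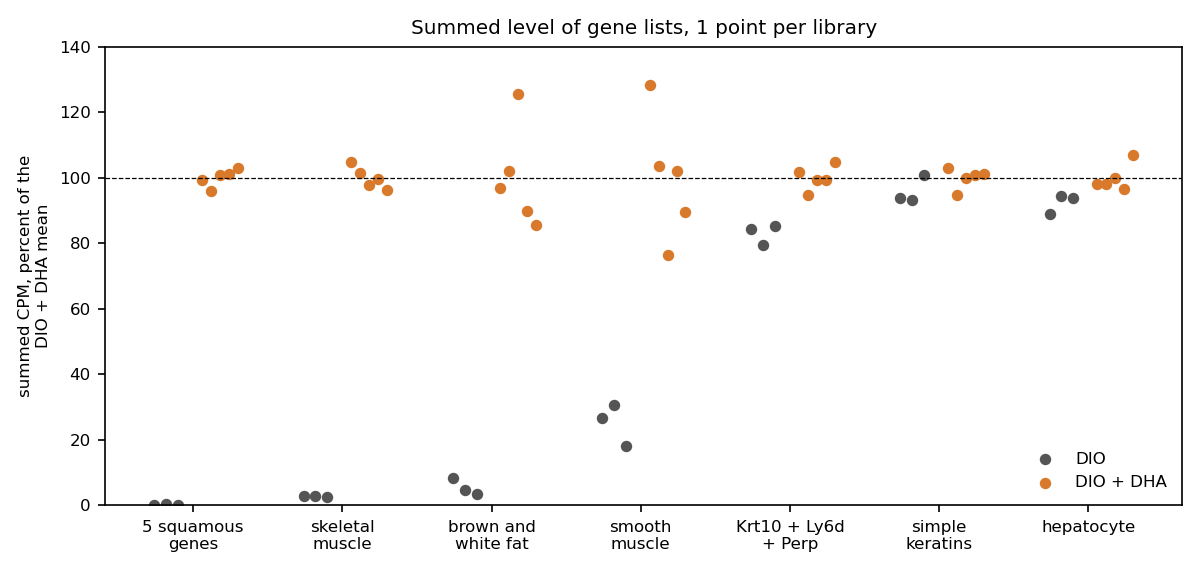
Summed CPM of gene lists in each library, in percent of the DIO + DHA mean of that list (dashed line at 100), with 1 point per library. The 5 squamous genes, skeletal muscle and fat lie near 0 in the 3 DIO libraries, smooth muscle lies between, and Krt10 + Ly6d + Perp, the simple keratins and the hepatocyte genes lie near the dashed line in both groups.

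The genes whose counts spread over the 8 libraries most like the Krt4 + Krt13 sum were sought among 11245 genes with at least 50 counts, outside the members. The measure was the total variation distance between the shares of CPM in each library, which is 0 for the same distribution and 1 for none in common. The 5 nearest were Acta1 of skeletal muscle at 0.0313, Krtdap at 0.0338, an unnamed gene (ENSMUSG00000038917.6) at 0.0343, and the muscle genes Mylpf at 0.0370 and Tcap at 0.0372. Acta1 had 21, 67 and 65 counts in the DIO libraries and 2920, 1561, 1511, 2320 and 2471 in the DIO + DHA libraries. Of these 5, Acta1, Mylpf and Tcap were on the skeletal muscle list, and Krtdap was the only gene on a squamous list. Relative to the DIO + DHA group, the DIO level was 2.15% (1.82% to 2.53%) for Acta1 and 1.92% (0.769% to 3.99%) for Krtdap. For Krt4, with a single DIO count, it was 0.299% (0.00755% to 1.67%). These intervals cover counting error only, and the values are a description.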

How the data were processed

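Poly(A) RNA of 8 livers was sequenced by an adaptation of SCRB-seq with 3′-enriched cDNA. According to the labels and methods, the authors aligned the reads with STAR 2.7.9a to GRCm39 and assigned them to exons with featureCounts 1.6.0 (GENCODE mouse release 33, no strand option). The deposited values are raw counts per gene, without normalization, and only unique alignments in 1 gene are included. Collapsing of reads by molecular identifier is not given in the sources used here, so intervals and floors cover counting error only. Totals were 1723800 to 5690347 counts, with a median of 4495644.

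GENCODE mouse release 39 gave names to 56323 of 56884 identifiers, leaving 561 unnamed. Coordinates came from the deposited tables. CPM used TMM scaling and all tests used edgeR 4.0.16 in R 4.3.3 (quasi-likelihood F test) over the 8 libraries, with Benjamini-Hochberg adjustment over 12412 genes at 0.05. Shares have exact Clopper-Pearson intervals and ratios exact conditional binomial intervals, at 95%. The script was tested on simulated data. Genes named in the text are the 10 members, the 4 genes of each list with the most counts, the 5 genes most like Krt4 + Krt13 in distribution, and genes that a small count refers to. The others were named after their values were seen. The members and lists were chosen with earlier results of these data known, and the lists came from general knowledge. Alternatives were DESeq2 1.42.0 (size factors and Wald test), library size, limma-voom (limma 3.58.1), other filters, the replicate number as a block and leaving out each library in turn.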

Additional observations from a re-analysis of the deposited data

Results flagged for a closer look

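Of 102 groups of 5 DIO + DHA values examined, 11 had a library far from the others. Its gap to the nearest library was above 0.71 of the whole range (Dixon's critical value for 5 samples). For normally distributed values, chance gives this in about 1 of 20 groups. A gene counted in a single library always reaches 1, so the 11 of 102 cannot be compared with that rate. Among the members, Krt10 stood out because replicate 4, at 8.92 CPM, lay above the other 4 libraries (5.46 to 6.35 CPM), with a gap of 0.743 of the range. The sum of Krt1 and Krt10 repeats this value of 0.743, since Krt1 had 0 counts. Krt6a reached 1 because its only count was in replicate 1. Of the other genes, Ecm1 reached 0.828, with replicate 5 highest. Krt27, Krt31, Muc19, Pmel, Scgb1a1, Tff2 and Wt1 reached 1, each being counted in a single DIO + DHA library.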

How the results depend on the processing

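Requiring 10 counts in every library of 1 group left 13 of the further squamous genes tested and 4 higher (15 in the report), and 17 of 20 other-tissue genes higher (26). DESeq2's Wald test called 1 gene of simple keratins and bile duct cells (3). Leaving out each library in turn gave 1 to 3 for that count, with 1 without DIO replicate 1 and 1 without DIO + DHA replicate 4. It gave 13 to 16 squamous genes higher, 22 to 26 other-tissue genes higher and 1432 to 1859 genes called in all (1883). The log2 ratio was 7.57 (without DIO replicate 5) to 8.43 for Krt4 (no value without DIO replicate 4, which holds its only DIO count), 0.10 to 0.41 for Krt10, 0.29 to 0.37 for Ly6d and 0.23 to 0.33 for Perp. The 5-gene sum stayed within 49.3 to 49.9 CPM, the Krt4 share of Krt4 + Krt13 within 61.0% to 63.7% and the oesophagus-type share within 85.8% to 87.4%. Sfn kept its call in 2 of 14 alternatives and Spink5 in 11 of 14. Krtdap, Loricrin, Lamb3, Tgm1 and Krt23 kept theirs in all 15. Where a count moved, the cause was not tested, apart from the fewer genes tested under the stricter filter. The 5-gene sum was added after the counts were seen. Replicate numbers 1, 4 and 5 occur in both groups, but deviations of same-numbered libraries over 6301 genes correlated at only -0.00449, -0.0196 and -0.0473, so the numbers were not read as pairs. With the replicate number as a block, 1538 genes were called, 14 of the squamous genes were higher, 2 genes of simple keratins and bile duct cells were called and 24 other-tissue genes were higher. Krt5, Krt14, Krt6a and Krt1 had 27, 18, 1 and 0 counts in all, too few for a test at this depth.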
